A study of Homo sapiens with 15 samples.

Results

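The cytosolic ribosomal protein genes are the protein-coding genes whose symbol begins with RPL or RPS and names 1 protein of the large or the small subunit, with RPLP0, RPLP1, RPLP2 and RPSA. The naming rule finds 77 of the 47634 genes in the count tables, 46 of the large subunit and 31 of the small subunit, and 76 of them had enough counts to be tested.

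Cytosolic ribosomes join a large subunit, which forms the peptide bond, with a small subunit, which reads the messenger RNA. Their proteins are made from some of the most abundant transcripts of a growing cell. Most of these transcripts begin with a cytosine followed by a run of pyrimidines, the 5′ terminal oligopyrimidine tract (TOP), through which their translation follows the growth kinase mTORC1.

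The libraries come from IGROV-CP20, an ovarian cancer cell line made resistant to cisplatin, which is a platinum drug that binds DNA. One group was left untreated and one received cisplatin (50 µM, 24 h). In the other 3 groups a first drug (Tranilast, Telmisartan or Amphotericin B, each at 10 µM) was given for 24 h, followed by that same cisplatin treatment. Tranilast is used against allergy, Telmisartan blocks the angiotensin receptor, and Amphotericin B is an antifungal that binds sterols. All groups are the same resistant line with no change of genotype given, each has 3 biological replicates by the labels, and no group received a drug without cisplatin, so a drug is seen only on top of cisplatin.

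Counts came from the 3′ ends of polyadenylated RNA (QuantSeq), with 1510620 to 3517041 counts per library, so that 3 counts stand for 8.53e-05% to 0.000199% of a library, by counting error only. Levels are given as CPM, the counts brought to a common library total after scaling by TMM factors, which ranged from 0.721 to 1.27. Each gene has its own 3′ end, so levels are compared between libraries and not between genes. Of 11 epithelial markers, 6 (PAX8, KRT7, MUC16, WT1, MSLN and CLDN4) had fewer than 10 counts in every library, while KRT18 was at 84.0 to 209 CPM and EPCAM at 11.2 to 43.5 CPM, and their summed level was 147 to 253 CPM. The endothelial genes VWF and CDH5 and the T cell gene CD3E were at 0 throughout. Of 5 immune markers, PTPRC alone reached 10 counts, and their summed level was 65.6 to 79.2 CPM in untreated libraries and 4.77 to 22.8 CPM in the others. Of 5 fibroblast markers, 3 were under 10 counts everywhere, with a summed level of 17.1 to 45.8 CPM over all libraries, and the erythroid genes HBA1 and HBB had at most 3 counts.

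In 1 library each of 2 conditions the members stood apart from the other replicates. In the cisplatin group, replicate 1 had the highest level and replicate 3 the lowest for 76 of 76 members, and in the Telmisartan group replicate 3 had the lowest level for 76 of 76. Results that rest on these libraries are given with and without them.

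As these transcripts are known for their first bases, the 30 bases around the annotated start were read from RefSeq (GRCh38.p14) for the members with the largest and smallest differences below that have an entry. Each line runs 5′ to 3′ on the gene's strand with 10 bases before the start, and capitals mark the unbroken run of C and T that includes the start base. For RPL38, RPSA, RPL7A and RPL39, which stood highest with cisplatin, and for RPL22, the windows were:
RPL38: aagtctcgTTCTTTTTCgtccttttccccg
RPSA: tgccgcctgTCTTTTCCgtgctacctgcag
RPL7A: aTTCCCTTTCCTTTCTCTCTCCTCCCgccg
RPL39: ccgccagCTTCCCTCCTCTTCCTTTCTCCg
RPL22: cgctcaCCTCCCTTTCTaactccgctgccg
They lie at chr17:74203668-74203697 (plus strand), chr3:39406710-39406739 (plus), chr9:133348208-133348237 (plus), chrX:119791611-119791640 (minus) and chr1:6199576-6199605 (minus). For RPL3, RPL4, RPL13 and RPS27A, which stood lowest or were not called, and for RPS15, which stood among the highest, the annotated start lacks the tract:
RPL3: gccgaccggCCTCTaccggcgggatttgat
RPL4: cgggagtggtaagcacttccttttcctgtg
RPL13: tgctatcaTCCCagagtgcattgcggggcc
RPS27A: agtgacacacaagacccagactcttcccta
RPS15: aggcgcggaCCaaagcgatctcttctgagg
These windows are at chr22:39319604-39319633 (minus), chr15:66504836-66504865 (minus), chr16:89560647-89560676 (plus), chr2:55231893-55231922 (plus) and chr19:1438386-1438415 (plus). RPL4 and RPS27A have no capitals because the annotated start base is not a pyrimidine. Both windows hold a run of C and T further downstream. A start without the tract is thus a statement about the annotated base only, and where transcription begins in these cells was not tested.

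Among the 62 members with a promoter entry, 42 (67.7%) had C at the annotated start followed by at least 4 bases that are C or T, against 1429 of 35116 promoters of all genes (4.07%). A run of at least 7 pyrimidines between 10 bases before and 20 bases after the start was present in 51 members (82.3%) and in 19.3% of all promoters. In the 300 bases from 250 before to 50 after the start, CCGGAA on either strand, the core bound by ETS and GABP factors, was present in 33 members (53.2%) and in 17.2% of all promoters. The YY1 core AAGATGGC on either strand was present in 9.68% of members and in 2.89% of all promoters, and TATAAA on either strand in 8.06% and 11.5%. CCGGAA and AAGATGGC can overlap where the AA that ends the first begins the second, and a start with the tract can also count toward the pyrimidine run. A match describes the letters only.

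The members took 11.8%, 11.1% and 11.4% of all counts in untreated replicates 1, 2 and 3. With cisplatin alone the share was 21.5%, 17.3% and 15.5%, above every untreated library. With Tranilast and cisplatin it was 11.1%, 11.4% and 10.9%, and these libraries overlapped with the untreated ones and lay below every library with cisplatin alone. With Telmisartan and cisplatin the share was 18.3%, 18.8% and 11.1%, so that replicates 1 and 2 lay within the range of cisplatin alone and replicate 3 lay just below the untreated range. Amphotericin B and cisplatin gave 18.3%, 19.1% and 18.3%. In bulk RNA, fewer cells of a kind and less RNA per cell cannot be told apart. A share is also relative to the counts of all other genes in the library, so amounts per cell were not measured.

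The share of the mitochondrial ribosomal RNAs MT-RNR1 and MT-RNR2 was low or high in many of the same libraries as that of the members, but not in step throughout. It was 1.79% to 2.20% in untreated libraries, 2.10% to 2.53% with Tranilast and 12.3% to 14.8% with Amphotericin B. In cisplatin replicates 1, 2 and 3 it was 13.7%, 5.61% and 3.41%, and in the Telmisartan replicates 10.8%, 12.9% and 3.61%. Replicates 3 of cisplatin and Telmisartan were thus close in mitochondrial share, while their members took 15.5% and 11.1% of counts. Without the counts of both mitochondrial RNAs the members took 11.4% to 12.02% in untreated libraries, 11.2% to 11.7% with Tranilast, 16.03% to 24.9% with cisplatin alone, 11.5% to 21.6% with Telmisartan and 21.2% to 21.8% with Amphotericin B. Since this share differed between the conditions, its part and that of the condition cannot be told apart, and each comparison is also given with it in the model.

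**Figure D1:**
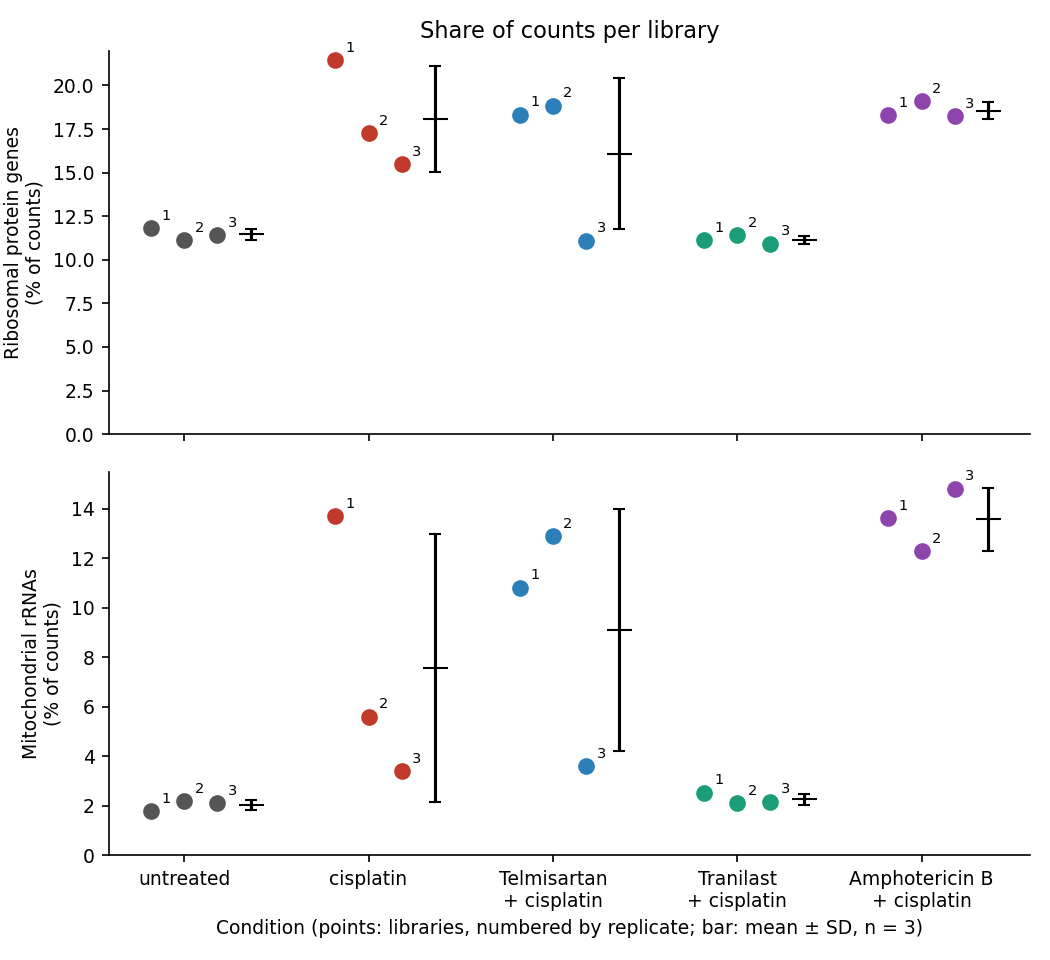
Share of all counts on the cytosolic ribosomal protein genes (upper panel, percent) and on the mitochondrial ribosomal RNAs MT-RNR1 and MT-RNR2 (lower panel, percent) in each of the 15 libraries, numbered by replicate, with the mean and SD of 3 libraries. The Tranilast libraries (10.9% to 11.4%) lie at the level of untreated cells in the upper panel, while cisplatin replicate 1 (21.5%) and Telmisartan replicate 3 (11.1%) stand apart from their groups in both panels.

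Cisplatin alone was compared with untreated cells, which asks what the platinum drug did to these transcripts in resistant cells. Of 76 members, 73 rose and 0 fell, at a median log2 fold change of 1.17, against a median of -0.01 over the 11113 genes tested, by the quasi-likelihood test of edgeR (Benjamini-Hochberg adjusted p under 0.05). In this comparison 21.1% of all genes tested rose and 23.6% fell. At an unadjusted p under 0.05 the test had 75 members higher and 0 lower, and DESeq2 called 74 higher and 0 lower. The 3 libraries with cisplatin lay above all 3 untreated libraries in 74 members, where 24.0% of all genes did so. The members' log2 fold changes had an SD of 0.255 between genes, where those of all genes had 1.07. Members are also more abundant, with a mean log2 CPM of 9.16 to 10.93 per library, where the median of all genes was 4.33 to 4.61. A set of genes of equal level was not compared, so the part of level in the narrower spread was not tested.

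The largest increase was that of RPSA, a small subunit protein also known as the laminin receptor precursor. It was at 177, 147 and 159 CPM in untreated replicates and at 735, 492 and 305 CPM with cisplatin, a log2 fold change of 1.66 (SE 0.32, edgeR adjusted p = 0.000485). All cisplatin libraries lay above the untreated ones.
RPL38, a small protein of the large subunit known for its part in the translation of Hox messenger RNAs in mouse embryos, was at 526, 498 and 480 CPM in untreated cells and at 2498, 1256 and 882 CPM with cisplatin. Its log2 fold change was 1.62 (SE 0.35, edgeR adjusted p = 0.00133), and the highest cisplatin library was again replicate 1. RPS15, in the head of the small subunit, rose from 424, 365 and 329 CPM to 1599, 1165 and 680 CPM, with a log2 fold change of 1.62 (SE 0.35, edgeR adjusted p = 0.00141). RPL7A, of the large subunit, rose from 382, 374 and 406 CPM to 1580, 1194 and 784 CPM, with a log2 fold change of 1.61 (SE 0.34, edgeR adjusted p = 0.00107). These 4 genes lie on 4 chromosomes and their cisplatin libraries do not overlap with the untreated ones.

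The 3 members that did not pass the test were RPL3, RPL4 and RPS27A. RPL3, which reaches toward the peptidyl transferase centre, was at 379, 341 and 359 CPM in untreated cells and at 658, 419 and 344 CPM with cisplatin, so that the groups overlapped (log2 fold change 0.40, SE 0.27, edgeR adjusted p = 0.248). RPL4, which lines the exit tunnel for the nascent peptide, was at 230, 214 and 210 CPM and at 417, 322 and 256 CPM (log2 fold change 0.61, SE 0.25, edgeR adjusted p = 0.0566). RPS27A, which is made as a fusion with ubiquitin, was at 10830, 9564 and 11090 CPM and at 25830, 15760 and 11900 CPM (log2 fold change 0.77, SE 0.35, edgeR adjusted p = 0.0849). In RPL4 and RPS27A the groups did not overlap, but the replicates with cisplatin were far apart. The smallest differences among members that passed were those of RPL13, at 806, 744 and 841 CPM and 1408, 1171 and 1089 CPM (log2 fold change 0.62, SE 0.20), and RPL5 (0.70, SE 0.26).

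By role, the 3 proteins of the P stalk, which recruits translation factors to the large subunit, all rose. RPLP1 was at 3696, 3364 and 3137 CPM in untreated cells and at 12050, 6609 and 5382 CPM with cisplatin (log2 fold change 1.24, SE 0.33), RPLP2 had a log2 fold change of 1.26 (SE 0.36) and RPLP0 of 0.93 (SE 0.26). RPL5 and RPL11, which form a particle with 5S ribosomal RNA that can bind MDM2, both rose, RPL11 from 650, 614 and 565 CPM to 2089, 1250 and 897 CPM (log2 fold change 1.21, SE 0.33).
RPS6, the substrate of the S6 kinases, rose from 1173, 1051 and 1065 CPM to 2778, 1755 and 1491 CPM (log2 fold change 0.87, SE 0.26). RPS3, at the entry of the messenger RNA channel, rose by a log2 fold change of 0.94 (SE 0.27), RPS4X, an X-linked protein of the small subunit, by 0.88 (SE 0.26), and RPL22, which binds double-stranded RNA, by 0.78 (SE 0.30). The shortest members also rose, with log2 fold changes of 0.98 (SE 0.33) for RPL41, the smallest ribosomal protein, and of 1.57 (SE 0.36) for RPL39 at the exit tunnel.

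The counts by subunit were 44 of 46 large subunit genes (median log2 fold change 1.15) and 29 of 30 small subunit genes (1.20) called higher, and the balance of the subunits is given further on. Without cisplatin replicate 1 the number called higher was 48 and the median log2 fold change 0.80, and without cisplatin replicate 1 and Telmisartan replicate 3 it was 73 and 0.82. With the mitochondrial ribosomal RNA share added as covariate, edgeR called 0 members higher (4 at an unadjusted p under 0.05) and 1 lower, RPL3. The members' median log2 fold change was then 0.03, where all genes had 0.02.

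**Figure D2:**
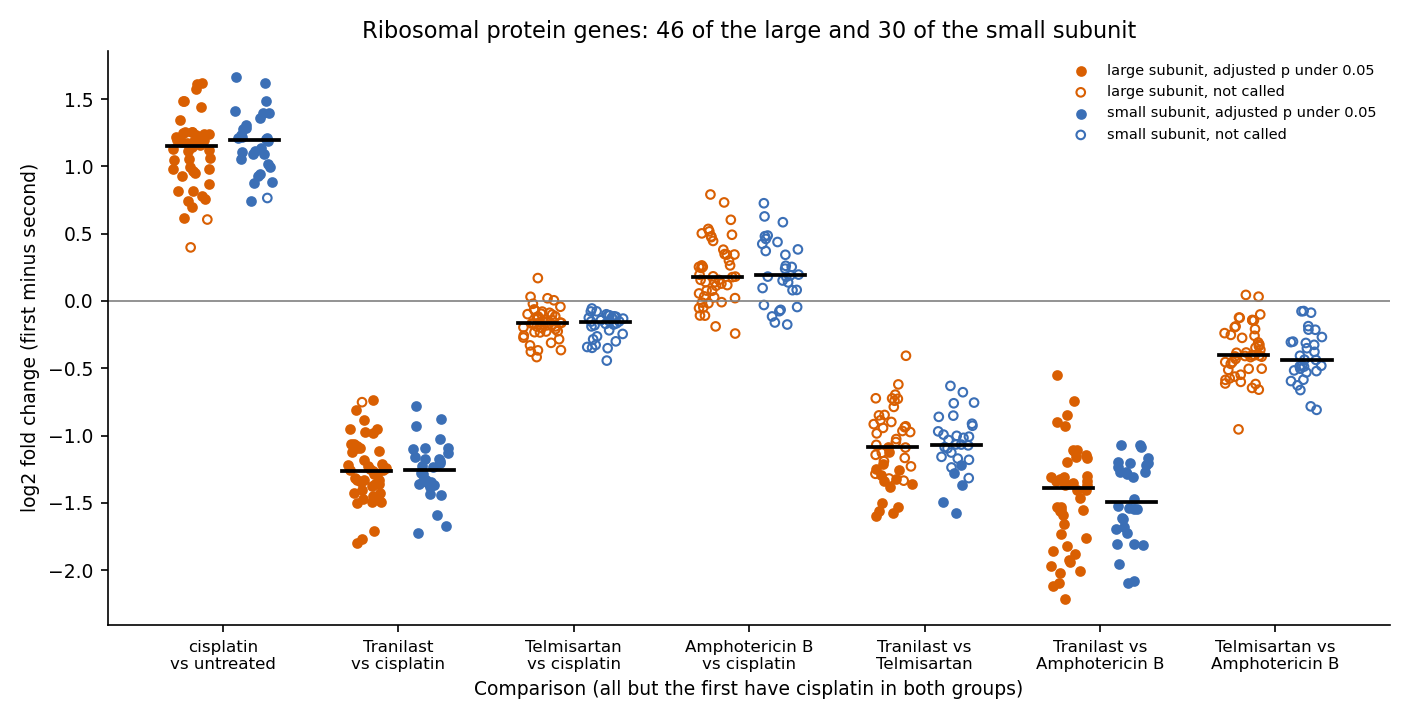
Log2 fold change (first group minus second) of each of the 76 tested members in the 7 comparisons, large subunit in orange and small subunit in blue, filled where the adjusted p was under 0.05, with black lines at the medians. The cloud with cisplatin against untreated cells lies above 0 (median 1.17), that with Tranilast against cisplatin alone below 0 (-1.26), and those with Telmisartan (-0.16) and Amphotericin B (0.18) against cisplatin alone are open points near 0.

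Tranilast with cisplatin was compared with cisplatin alone, which asks what the drug added. Of 76 members, 75 fell and 0 rose by edgeR, at a median log2 fold change of -1.26, against 0.02 over all genes tested. Here 11.6% of all genes tested fell and 10.5% rose. All 76 had an unadjusted p under 0.05, and DESeq2 called 76 lower and 0 higher. In all 76 members the 3 Tranilast libraries lay below the 3 cisplatin libraries, as in 18.9% of all genes. This comparison and that of cisplatin with untreated cells share the cisplatin libraries, so their values are given side by side and no relation between them was computed.

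RPL38 had the largest decrease, with 463, 446 and 426 CPM under Tranilast beside the 2498, 1256 and 882 CPM with cisplatin alone. The log2 fold change was -1.80 (SE 0.35, edgeR adjusted p = 0.00321), where that of cisplatin against untreated cells was 1.62. RPL7A was at 372, 328 and 346 CPM under Tranilast (log2 fold change -1.76, SE 0.34, edgeR adjusted p = 0.00306) and RPS15 at 358, 375 and 310 CPM (-1.72, SE 0.35, edgeR adjusted p = 0.00386).
RPL23, which like RPL5 and RPL11 can bind MDM2, was at 602, 546 and 554 CPM under Tranilast and at 2844, 1547 and 1183 CPM with cisplatin alone (log2 fold change -1.71, SE 0.35, edgeR adjusted p = 0.00361). In these 4 genes the Tranilast replicates lay close together, while the cisplatin replicates were far apart.

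The smallest decreases were those of RPL13, RPL3, RPS3 and RPL15. RPL13 was at 699, 749 and 753 CPM under Tranilast (log2 fold change -0.74, SE 0.20, edgeR adjusted p = 0.0150). RPL3, the only member not called, was at 265, 294 and 285 CPM (-0.75, SE 0.27, edgeR adjusted p = 0.0565), below its 3 libraries with cisplatin alone and also below its 3 untreated libraries. RPS3 (-0.78, SE 0.27) and RPL15 (-0.81, SE 0.24) were called lower.

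The P stalk genes fell together, with log2 fold changes of -1.43 for RPLP2, -1.25 for RPLP1 and -0.97 for RPLP0. RPL11 (-1.33) and RPL5 (-0.95) also fell, and RPS6 fell from 2778, 1755 and 1491 CPM to 984, 960 and 1022 CPM (-1.02). RPS27A, not called with cisplatin alone against untreated cells, was called lower here, at 7672, 9090 and 8167 CPM under Tranilast (log2 fold change -1.10, SE 0.35, edgeR adjusted p = 0.0336). RPSA (-1.33), RPL39 (-1.33), RPL22 (-1.09), RPL41 (-1.07) and RPS4X (-0.88) were called lower as well, and the other X-linked members, RPL10 and RPL36A, fell too.

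In the large subunit 45 of 46 members were called lower and in the small subunit 30 of 30, each at a median of -1.26. Left out in turn, cisplatin replicate 1 left 54 members lower (median -0.90) and Tranilast replicate 3 left 43 (median -1.26). With the mitochondrial ribosomal RNA share added as covariate 5 members were called lower, namely RPL7A, RPS24, RPL38, RPL23 and RPS25, chosen for mention after their values were seen. The members' median was then -0.22, where all genes had -0.02, and 16 members had an unadjusted p under 0.05 by edgeR, all lower.

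Set beside untreated cells with no test, the Tranilast libraries lay below all untreated libraries in 32 of 76 members and above all of them in 3, namely RPL39, RPS2 and RPSA. The same held for 25.1% and 21.1% of all genes tested. RPSA was at 209, 196 and 202 CPM under Tranilast and at 177, 147 and 159 CPM untreated, and RPS27A at 7672, 9090 and 8167 CPM and 10830, 9564 and 11090 CPM. The median ratio of the members to untreated cells was -0.12 on the log2 scale, where it was 0.98 with Telmisartan and 1.30 with Amphotericin B. The Telmisartan libraries lay above all untreated ones in 19 members, as in 18.4% of all genes, and below them in 0, as in 26.3%.

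Telmisartan with cisplatin did not separate from cisplatin alone in any member. By edgeR 0 of 76 were called in either direction, 0 had an unadjusted p under 0.05, DESeq2 called 0, and the smallest edgeR adjusted p was 0.593. Of all 11113 genes edgeR also called none (0.0% lower and 0.0% higher), where DESeq2, over more genes, called 56 lower and 24 higher. The libraries separated in 0 members, where 4.89% of all genes lay lower and 4.38% higher without overlap. The median log2 fold change was -0.16, and 72 of 76 members had a value below 0. With 1 library left out the median turned, to 0.22 without cisplatin replicate 1 and to 0.17 without Telmisartan replicate 3.

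The replicates of both groups were far apart. RPL38 was at 1685, 1665 and 599 CPM with Telmisartan beside 2498, 1256 and 882 CPM with cisplatin alone (log2 fold change -0.23, SE 0.34), and RPS24 was at 6098, 6511 and 2956 CPM beside 9663, 6369 and 5129 CPM (-0.44, SE 0.28). The values most above 0 were those of RPL17, at 50.5, 47.5 and 21.7 CPM beside 57.1, 31.9 and 17.1 CPM (0.17, SE 0.34), and RPL24, RPL28 and RPL6 (0.03, 0.02 and 0.01). The lowest after RPS24 were RPL27A (-0.42), RPL36A (-0.38) and RPL13A (-0.37). Without cisplatin replicate 1 and Telmisartan replicate 3, 49 members were called higher and 0 lower, at a median of 0.50. With the mitochondrial ribosomal RNA share added as covariate 21 were called lower, at a median of -0.41.

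Amphotericin B with cisplatin also left every member uncalled against cisplatin alone, with an edgeR adjusted p of 0.130 or more. Of the 76 members, 4 had an unadjusted p under 0.05, all of them higher, and DESeq2 called 0. Of all genes tested, 9.01% fell and 4.21% rose. The median log2 fold change was 0.18, but 0.59 without cisplatin replicate 1 and -0.01 without cisplatin replicate 3. The groups did not overlap in 1 member, where 10.9% of all genes lay higher without overlap and 13.8% lower.

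The largest value was that of RPL39, at 932, 725 and 884 CPM with Amphotericin B and at 828, 372 and 270 CPM with cisplatin alone (log2 fold change 0.79, SE 0.35, edgeR adjusted p = 0.131). The groups overlapped through cisplatin replicate 1, while the other cisplatin replicates lay below all 3 Amphotericin B libraries. RPL17, which like RPL4 lines the exit tunnel, had a log2 fold change of 0.73 (SE 0.34). At the other end were RPL13A, known for its part in translational silencing after interferon gamma, at 1808, 1769 and 1805 CPM beside 2673, 2071 and 1624 CPM (-0.24, SE 0.25), RPL13 (-0.19), RPS24 (-0.17) and RPS3A (-0.16).

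The Amphotericin B libraries were close together and all 76 members lay above all untreated libraries, where 23.4% of all genes did so and 35.3% lay below. RPS15, for instance, was at 1589, 1358 and 1505 CPM beside 424, 365 and 329 CPM untreated. Without cisplatin replicate 1 the number of members called higher against cisplatin alone was 19, without Telmisartan replicate 3 it was 4, and without both it was 58, at a median of 0.54. With the mitochondrial ribosomal RNA share added as covariate 29 were called lower, and the median turned to -0.41.

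The drugs were also compared with each other, all on top of cisplatin. Tranilast lay below Amphotericin B in all 76 members, which were all called lower by edgeR at a median log2 fold change of -1.41, where 16.4% of all genes tested were called lower and 19.7% higher. The libraries did not overlap in 76 members, as in 23.3% of all genes. The largest differences were those of RPL23, at 602, 546 and 554 CPM against 2455, 2551 and 2883 CPM (log2 fold change -2.21, SE 0.35, edgeR adjusted p = 0.000974), and RPL39 (-2.12, SE 0.36), and the smallest was that of RPL13 (-0.55, SE 0.20, edgeR adjusted p = 0.0395). The medians were -1.39 in the large and -1.50 in the small subunit. With the mitochondrial ribosomal RNA share added as covariate edgeR called 0 lower and 5 had an unadjusted p under 0.05, all of them higher, and the median turned to 0.12.

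Tranilast lay below Telmisartan in 20 of 76 called members, 15 of the large and 5 of the small subunit, where 1.75% of all genes tested were called lower and 0.585% higher. The median log2 fold change over the 76 was -1.07, 75 had an unadjusted p under 0.05, and DESeq2 called 73. In 32 members the libraries did not overlap, as in 10.9% of all genes, and in the others Telmisartan replicate 3 reached into or below the Tranilast range. The edgeR adjusted p of the 20 ran from 0.0412 to 0.0497, so the count sits at the threshold. It was 76 without Telmisartan replicate 3, 70 without cisplatin replicate 1, 49 without cisplatin replicate 3, 11 without cisplatin replicate 2, and 0 without any 1 of the other 11 libraries left out in turn. It was also 0 with library size only and with the 6 libraries alone. With the mitochondrial ribosomal RNA share in the model edgeR called 0, the median turned to 0.19, and 5 members had an unadjusted p under 0.05, all of them higher.

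RPL23 was at 602, 546 and 554 CPM with Tranilast and at 2279, 2134 and 734 CPM with Telmisartan (log2 fold change -1.60). Telmisartan was not separated from Amphotericin B in any member by edgeR (0 of 76, against 0.0% of all genes; 6 members had an unadjusted p under 0.05, all lower, and DESeq2 called 0), at a median of -0.41. Without Telmisartan replicate 3 the median was -0.10 and 0 members had an unadjusted p under 0.05, and with the mitochondrial ribosomal RNA share in the model the median was -0.04, with 6 at an unadjusted p under 0.05, 2 of them higher, and 0 called. The libraries lay apart, with Telmisartan lower, in 21 members, as in 9.86% of all genes. RPL39 had the largest difference, at 561, 549 and 204 CPM with Telmisartan and 932, 725 and 884 CPM with Amphotericin B (log2 fold change -0.95, SE 0.35, edgeR adjusted p = 0.160), and it was called lower without cisplatin replicate 1.

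**Figure D3:**
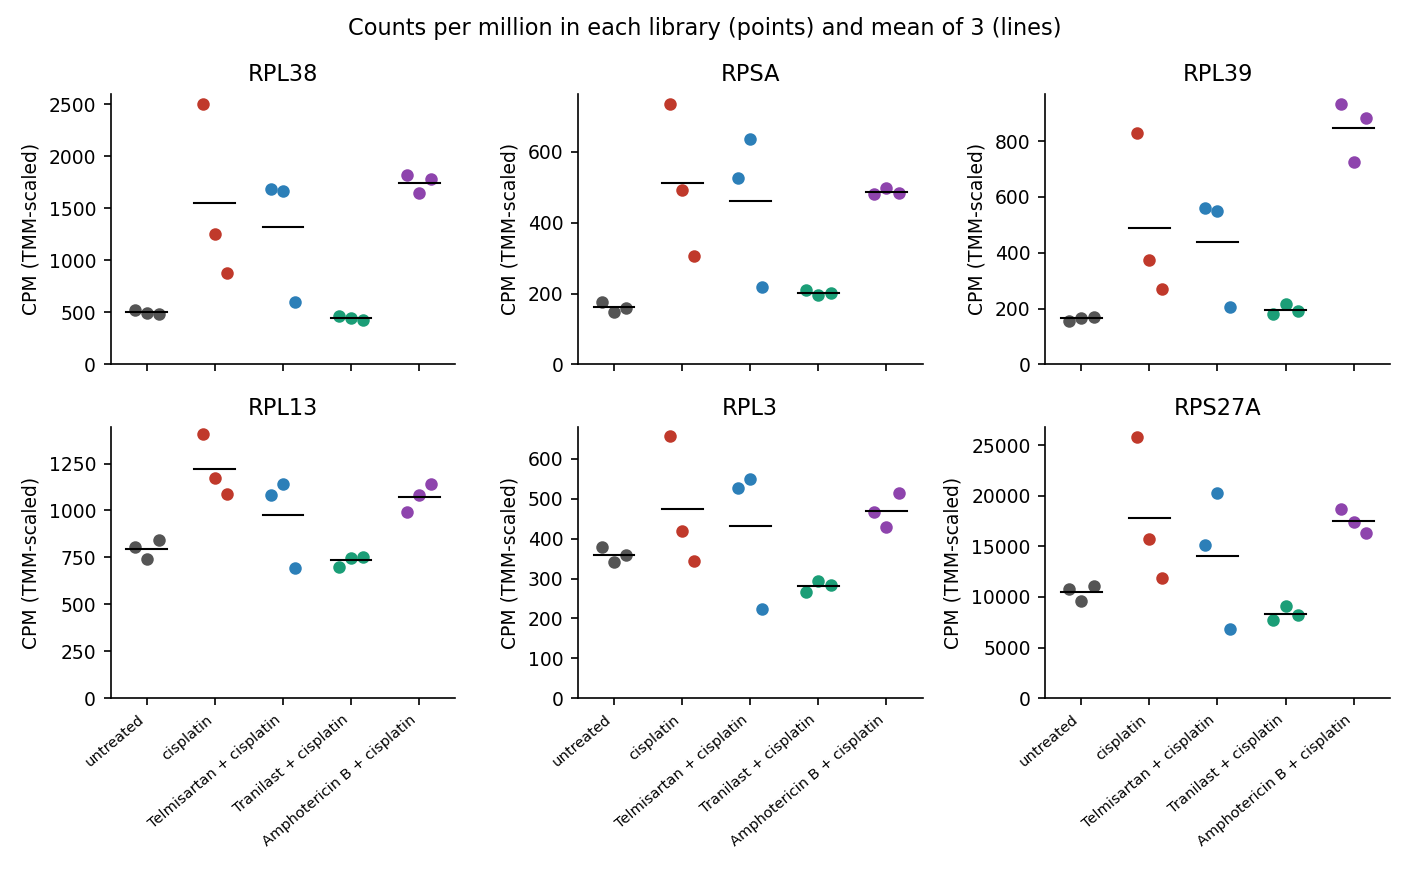
CPM of 6 members in each of the 15 libraries (points, replicates 1 to 3 from left to right) with the mean of each condition (line), from 0 on each axis. RPL38, RPSA and RPL39 are high with cisplatin and Amphotericin B and low with Tranilast, RPL13 moves less, and in RPL3 and RPS27A the Tranilast libraries lie below the untreated ones.

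The balance of the subunits was followed in each library. The mean log2 CPM of the large subunit genes minus that of the small subunit genes was -0.63 ± 0.01 in untreated libraries, -0.70 ± 0.01 with cisplatin alone, -0.66 ± 0.05 with Telmisartan, -0.70 ± 0.01 with Tranilast and -0.72 ± 0.01 with Amphotericin B (SD, n = 3). Each treated mean was thus lower than the untreated mean, by 0.03 to 0.09. The log2 of summed large over summed small subunit counts, which the few most abundant members dominate, moved the other way, from -0.15 ± 0.02 in untreated libraries to -0.07 ± 0.01 with cisplatin alone, -0.05 ± 0.05 with Telmisartan, -0.14 ± 0.01 with Tranilast and -0.01 ± 0.01 with Amphotericin B. A direction for the balance of the subunits therefore depends on the measure.

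The differences were also set beside the length of the coding sequence. Over 76 members with coding lengths of 75 to 1281 nt, Pearson's r between the log2 fold change and the log2 coding length was -0.40 for cisplatin against untreated cells and 0.38 for Tranilast against cisplatin alone, 0.13 for Telmisartan and -0.23 for Amphotericin B. These are correlations across genes, which share libraries and are no replicates, and the 4 comparisons share the cisplatin libraries. Taken library by library as the change from the untreated mean, r was -0.52 in cisplatin replicate 1, which stood apart, and -0.18 and -0.22 in replicates 2 and 3. The 38 members under the median length of 462 nt had a median of 1.21 with cisplatin and the 38 others 0.99, and with Tranilast -1.33 and -1.15. RPL3 (1209 nt) and RPL4 (1281 nt), the longest members, were among the lowest with cisplatin, while RPSA (885 nt) and RPL7A (798 nt) were among the highest and RPL41 (75 nt), the shortest, lay below the median.

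With cisplatin and with Tranilast a relation of the same sign was present outside the members. Over 10005 other protein-coding genes tested r was -0.35 with cisplatin and 0.38 with Tranilast, and over the 4552 of them no longer than the longest member -0.20 and 0.31. With Amphotericin B r over the 10005 genes had the other sign than in the members, at 0.08, and was -0.097 over the 4552. With Telmisartan the values were 0.21 and 0.07. Of these 4552 genes, 1284 rose and 620 fell with cisplatin, at a median log2 fold change of 0.21, and 244 rose and 765 fell with Tranilast, at a median of -0.18, where the members had 1.17 and -1.26. The part of transcript length in the members' differences was not tested.

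**Figure D4:**
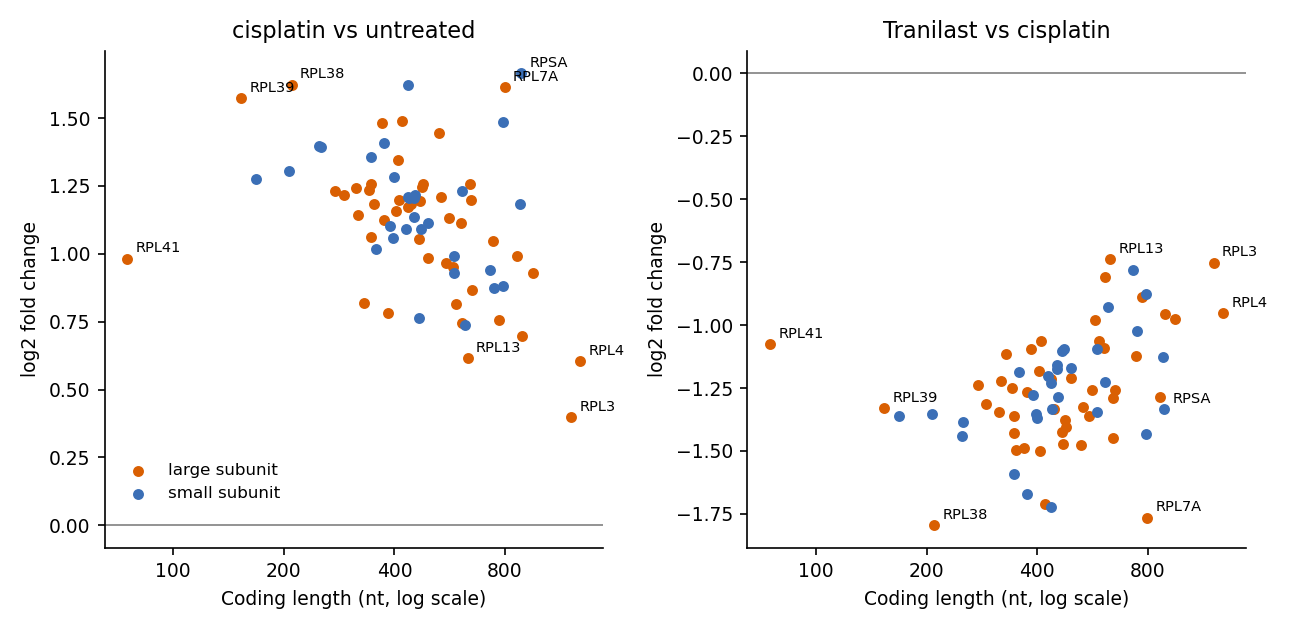
Log2 fold change of the 76 members against their coding length (nt, log axis) with cisplatin against untreated cells (left) and with Tranilast and cisplatin against cisplatin alone (right), large subunit in orange and small subunit in blue. The longest members, RPL3 and RPL4, lie near the lower edge on the left and nearer to 0 on the right (r = -0.40 and 0.38, n = 76 genes). RPSA and RPL7A lie far from the rest of their length on the left, as RPL7A does on the right.

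The 42 members whose annotated start has the tract described above all rose with cisplatin, at a median of 1.20, and of the 20 with another annotated start 17 rose, at 0.98. With Tranilast 42 of 42 (-1.28) and 19 of 20 (-1.27) fell. The 3 members not called with cisplatin, RPL3, RPL4 and RPS27A, were all among those with another annotated start, as was RPS15, which had one of the largest increases. The 28 members with a small nucleolar RNA inside the gene had 26 higher calls with cisplatin (median 1.14), and the 48 tested without one had 47 (1.18).

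Many of these genes have processed pseudogenes of near-identical sequence, between which reads may be split. The files hold 1122 pseudogenes named after members, with 0.328% to 0.692% of the counts of a library. They held over 10% of the summed counts for 16 members, among them RPL3 (39.0%), RPS3A (45.5%), RPS13 (59.9%), RPL13 (24.1%) and RPL10 (84.4%), whose levels are therefore uncertain. With the pseudogene counts added to each member, 73 members were again called higher with cisplatin and 75 lower with Tranilast.

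The other genes of the translation machinery were counted by list, and no difference between a list and the members or all genes was tested. Over all genes tested 21.1% rose and 23.6% fell with cisplatin, and 10.5% rose and 11.6% fell with Tranilast. With Amphotericin B 4.21% rose and 9.01% fell, and with Telmisartan 0.0% did either. Of 8 paralogs outside the naming rule 6 were tested, and with cisplatin 2 rose (33.3%) and 0 fell (median log2 fold change 0.65). RPL36AL, a paralog of RPL36A, rose from 93.7 ± 6.65 to 191 ± 31.6 CPM (SD, n = 3, log2 fold change 1.03, edgeR adjusted p = 0.000513), and RPL7L1 also rose (0.83, edgeR adjusted p = 0.0459). RPL22L1 and RPL39L, paralogs of RPL22 and RPL39, were not called (-0.29 and -0.13). With Tranilast 3 fell (50.0%), RPL36AL (-1.36), RPL26L1 (-1.32) and RPS27L (-0.81), and none rose. With Telmisartan edgeR called 0 (1 at an unadjusted p under 0.05, RPL7L1, at -0.83), and with Amphotericin B RPL7L1 alone fell (-1.42, edgeR adjusted p = 0.0136).

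Of 21 other transcripts of translation known or thought to carry the tract, 7 rose (33.3%) and 0 fell with cisplatin (median 0.49). With Tranilast 6 fell (28.6%) and 0 rose (-0.61). FAU, which encodes the ribosomal protein eS30 behind a ubiquitin-like protein, was at 800 ± 74.4 CPM in untreated cells and 2141 ± 1070 CPM with cisplatin (SD, n = 3, log2 fold change 1.42, edgeR adjusted p = 0.00536). With Tranilast it fell (-1.55). EEF1D, an exchange factor subunit of elongation, rose with cisplatin (1.15) and NACA, which binds nascent chains, fell with Tranilast (-1.07). Against cisplatin alone edgeR called 0 of the 21 with Telmisartan (0 at an unadjusted p under 0.05) and 0 with Amphotericin B (3, all higher), where RACK1 had the smallest p (0.81, edgeR adjusted p = 0.0724).

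Of 34 tested ribosome biogenesis factors 19 rose (55.9%) and 3 fell (8.82%) with cisplatin (median 0.60), led by GRWD1 (1.71, edgeR adjusted p = 0.000108) and TSR1, needed to mature the small subunit (0.98, edgeR adjusted p = 0.000118). With Tranilast 13 fell (38.2%) and 1 rose (2.94%), at a median of -0.48, with TSR1 at -0.83 and NOP16 at -1.01. With Amphotericin B 0 rose and 5 fell (14.7%, where 9.01% of all genes did). Among the 5 were RRN3, an initiation factor of RNA polymerase I (-1.57, edgeR adjusted p = 0.00720), and UBTF, which activates its transcription (-0.97, edgeR adjusted p = 0.0151). With Telmisartan edgeR called 0 of the 34 (4 at an unadjusted p under 0.05, all lower).

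Of 22 genes that control the tract or mTORC1, 4 rose (18.2%) and 5 fell (22.7%) with cisplatin (median -0.24), shares near the 21.1% and 23.6% of all genes. MTOR itself fell from 29.2 ± 0.441 to 8.10 ± 4.65 CPM (log2 fold change -1.88, edgeR adjusted p = 0.000205), and DDIT4 and SESN2, stress-induced inhibitors of mTORC1, also fell (-1.82 and -1.65). With Tranilast 3 rose (13.6%, where 10.5% of all genes did) and 1 fell (4.55%, where 11.6% did), and DDIT4 (1.86), SESN2 (1.79) and MTOR (1.02) were higher. With Amphotericin B 2 fell (9.09%, where 9.01% of all genes did), TSC1 (-1.08, edgeR adjusted p = 0.0277) and EIF4EBP2 (-0.74, edgeR adjusted p = 0.0426), and edgeR called 0 of the 22 with Telmisartan (1 at an unadjusted p under 0.05, DDIT4, at 0.94).

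Of 75 tested ribosomal proteins of mitochondria, 35 rose (46.7%) and 3 fell (4.0%) with cisplatin (median 0.43), and 22 fell (29.3%) and 1 rose (1.33%) with Tranilast (-0.40). MRPL44 (1.60) and MRPS12 (1.32) had the smallest p with cisplatin and MRPS17 (-1.28) and MRPS12 (-1.06) with Tranilast. With Amphotericin B 6 rose (8.0%, where 4.21% of all genes did) and 3 fell (4.0%, where 9.01% did), with MRPL12 at 1.21 and MRPL44 at -1.22. With Telmisartan edgeR called 0 (8 at an unadjusted p under 0.05, 3 higher and 5 lower).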

How the data were processed

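RNA of IGROV-CP20 cells was measured by QuantSeq 3′ end sequencing (100 ng of RNA, reads of 75 bp) in 15 libraries, 3 in each of 5 conditions taken from the labels. The authors deposited raw read counts per Ensembl gene, 1 table per library, as whole numbers without normalization. The submitters' processing notes name STAR 2.3.0, HTSeq and hg19. The annotation, the use of strand and the treatment of reads with several matches are not given in the sources used here. GENCODE 29 on GRCh38 gave symbols and lengths for 45776 of 47634 identifiers. Start sequences came from RefSeq (GRCh38.p14), and no coordinates of the authors' build were used.

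The filterByExpr function kept 11113 genes. TMM factors and 1 quasi-likelihood fit over all 15 libraries (edgeR 4.0.16, R 4.3.3, limma 3.58.1) gave 7 comparisons, with Benjamini-Hochberg adjustment over all genes tested and a threshold of 0.05. Each SE divides the absolute log2 fold change by the square root of F, and log2 CPM used a prior count of 2. With 3 libraries in each condition, p-values measure against the spread between replicates, which the labels call biological. That spread was estimated over all 15 libraries together, so libraries outside a comparison also bear on its p-values. Summaries used Python 3.11.15.

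Named are the 4 members with the most positive and the 4 with the most negative log2 fold change in cisplatin against untreated and in each drug against cisplatin, 14 members by role, and in each other list the 2 genes with the smallest p per comparison. Some genes that this rule names are not reported here. The members and lists were chosen with earlier results of these data known. Alternatives were DESeq2 1.42.0, RLE factors, library size only, TMM without the members, other filters, the 6 libraries of a comparison alone, the replicate number as a block, pseudogene counts added, and each library left out in turn. A covariate for the log2 share of mitochondrial ribosomal RNA, and leaving out both libraries that stood apart, were chosen after seeing the data. On simulated data for Tranilast against cisplatin the fit called 86 of 100 genes changed by a log2 fold of 2 and 42 of 97 changed by 1. Of these 97, called or not, 2 had an estimate of the wrong sign. The fit called 12 of 10581 unchanged genes, and 0 of 10778 in an unchanged comparison for Telmisartan. Each gene was drawn independently, so the simulation holds no shift that many genes share within a library, as the members do here. No pair of replicates agreed within sampling noise (chi-square per degree of freedom 2.24 to 44.2).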

Additional observations from a re-analysis of the deposited data

Results flagged for a closer look

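In 2 comparisons the effect of a drug on the members differed from that of another drug by a direct test of the difference, both drugs being given with cisplatin. Between Tranilast and Amphotericin B, 76 members were called lower with Tranilast, where 16.4% of all genes were, and between Tranilast and Telmisartan 20 were, where 1.75% of all genes were, both by edgeR (Benjamini-Hochberg adjusted p under 0.05). The second number rests on replicates of Telmisartan that lie far apart, and it did not hold under most alternatives. With 1 library left out it ran from 0 to 76. It was 0 with the 6 libraries alone and with library size only, and 73 with DESeq2. The share of mitochondrial ribosomal RNA was 2.10% to 2.53% with Tranilast, 3.61% to 12.9% with Telmisartan and 12.3% to 14.8% with Amphotericin B. With that share as covariate 0 members were called in either comparison, and the median log2 fold changes turned from -1.41 to 0.12 and from -1.07 to 0.19.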

How the results depend on the processing

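Library size only, in place of TMM, shifted the median of all genes from -0.01 to -0.36 with cisplatin, from 0.02 to 0.46 with Tranilast and from 0.15 to 0.81 between Tranilast and Amphotericin B. The members' medians went from 1.17 to 0.74, from -1.26 to -0.73 and from -1.41 to -0.75, and 59 members were then called higher, 65 lower and 65 lower in these comparisons. Members called lower between Tranilast and Telmisartan were 0 with library size only, 0 with the 6 libraries alone, 69 with no filter, 73 with DESeq2 and 32 with the replicate block. Between conditions, libraries with equal replicate numbers had a mean r of 0.02 in 30 pairs, 3 over 0.1. In 60 pairs of different numbers the mean was -0.01, with 10 over 0.1. The highest r was 0.63, between replicates 3 of cisplatin and Telmisartan, and the highest between different numbers was 0.48. Whether the numbers pair the libraries cannot be settled from these values. The block moved no other count of calls past 1.5 times. Leaving out 1 library gave 48 to 75 higher with cisplatin, 43 to 76 lower with Tranilast, 0 to 19 higher with Amphotericin B against cisplatin, 0 to 76 lower between Tranilast and Telmisartan, 70 to 76 lower between Tranilast and Amphotericin B and 0 to 1 lower between Telmisartan and Amphotericin B. No filter called 2 higher with Amphotericin B and 1 lower, RPL39, between Telmisartan and Amphotericin B. Without cisplatin replicate 1 and Telmisartan replicate 3 the counts were 49 higher with Telmisartan, 58 higher with Amphotericin B, 76 lower between Tranilast and Telmisartan and 1 lower between Telmisartan and Amphotericin B. The members' median with Telmisartan then went from -0.16 to 0.50. Among the log2 fold changes that turned were 0.65 for RPL11, 0.66 for RPL22, 0.49 for RPL3, 0.79 for RPL39, 0.57 for RPL41, 0.61 for RPLP1, 0.70 for RPLP2, 0.43 for RPS3, 0.40 for RPS6 and 0.55 for RPSA. With 1 library left out these ran from -0.379 to 0.341 for RPL11, -0.38 to 0.406 for RPL22, -0.338 to 0.221 for RPL3, -0.454 to 0.488 for RPL39, -0.39 to 0.332 for RPL41, -0.34 to 0.341 for RPLP1, -0.355 to 0.389 for RPLP2, -0.257 to 0.244 for RPS3, -0.349 to 0.179 for RPS6 and -0.456 to 0.247 for RPSA, none of them called. With the mitochondrial ribosomal RNA share as covariate there were 0 higher and 1 lower with cisplatin, 5 lower with Tranilast, 21 lower with Telmisartan and 29 lower with Amphotericin B, and 0 lower between Tranilast and Telmisartan or Amphotericin B or between these last 2. Under it the median over all tested members went from 1.17 to 0.03 with cisplatin and from 0.18 to -0.41 with Amphotericin B. Many members thus turned, and those listed here are examples only. With cisplatin they include RPL11 -0.074, RPL22 -0.42, RPL3 -0.62, RPL41 -0.11, RPL5 -0.13, RPLP2 -0.083 and RPS6 -0.017. With Tranilast they include RPL22 0.003 and RPL39 0.052, and with Amphotericin B RPL11 -0.55 and RPL22 -0.543. With pseudogenes the share was 11.8% untreated, 11.5% with Tranilast and 19.2% with Amphotericin B, and the large minus small difference with Amphotericin B changed by -0.0746 from untreated. By summed counts that change was 0.0873 with cisplatin, 0.107 with Telmisartan, 0.0177 with Tranilast and 0.142 with Amphotericin B. Apart from these fits, the causes of the shifts were not tested.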
